A study of Mus musculus with 35 samples.

Results

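The 5 genes Lpl, Cd36, Fabp3, Fabp4 and Fabp5, whose products free, take up or bind fatty acids, were followed in mouse perigonadal fat. They were picked by gene symbol, with earlier results of these data known, and made up 5 of 8251 named genes and 7 of 12422 probe sets on the array. Lpl and Cd36 had 2 probe sets each and the others 1.

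Perigonadal adipose tissue of C57BL/6J mice aged 22 weeks was profiled in 35 samples, each on its own Affymetrix array (MG-U74Av2). The study set obese mouse models, and obese mice given a drug, beside lean mice. Nothing in the labels says whether an array is 1 mouse or a pool, so the p-values measure the spread between these samples. Of the female samples, 3 were of Ay/+ mice given pioglitazone, 4 of untreated Ay/+ mice and 4 of lean wild-type mice. Another 3 were of ob/ob mice given pioglitazone, 2 of ob/ob mice given CL316243 and 4 of untreated ob/ob mice. Of the male samples, 4 were of wild-type mice made obese on diet D12451 and given pioglitazone, and 3 of such mice on that diet alone. A further 4 were of untreated ob/ob males and 4 of lean wild-type males. Ay/+ mice carry a dominant agouti allele and overeat, and ob/ob mice make no functional leptin and overeat. Pioglitazone activates PPAR gamma, the nuclear receptor of adipocyte differentiation, and was given at 10 mg/kg/day for 2 weeks. The label of Ay/+ pioglitazone replicate 3 names the drug and the time but no dose. CL316243, an agonist of the beta-3 adrenergic receptor, was given at 3 mg/kg/day for 2 weeks.

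Lipoprotein lipase, the product of Lpl, is made by adipocytes, moves to the capillary wall and frees fatty acids from the triglyceride of circulating lipoproteins. CD36 at the cell surface takes up long-chain fatty acids. Inside the cell the fatty acid-binding proteins hold them in solution: FABP4 is the abundant form of white adipocytes and also occurs in macrophages, FABP5 is expressed in epidermis, macrophages and adipocytes, and FABP3 is the form of heart, skeletal muscle and brown fat. Several of these genes are textbook targets of PPAR gamma.

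Promoters of Fabp3 and Cd36 were found in the RefSeq table (build GRCm38.p6), and those of Fabp4, Fabp5 and Lpl were not. They are printed because Fabp3 carried most of the called differences described below and Cd36 is the other member with an entry. Each run is the 250 bases before the annotated start, 5′ to 3′ on the strand of the gene, with matches to the searched motifs in capitals. Fabp3 is at chr4:130308488-130308737 on the plus strand and Cd36 at chr5:17835897-17836146 on the minus strand.
Fabp3: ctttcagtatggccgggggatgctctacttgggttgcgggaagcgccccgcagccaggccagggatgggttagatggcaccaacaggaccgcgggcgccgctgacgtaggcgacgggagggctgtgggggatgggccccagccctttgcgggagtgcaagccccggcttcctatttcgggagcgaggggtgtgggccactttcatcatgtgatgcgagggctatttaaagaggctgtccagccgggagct
Cd36: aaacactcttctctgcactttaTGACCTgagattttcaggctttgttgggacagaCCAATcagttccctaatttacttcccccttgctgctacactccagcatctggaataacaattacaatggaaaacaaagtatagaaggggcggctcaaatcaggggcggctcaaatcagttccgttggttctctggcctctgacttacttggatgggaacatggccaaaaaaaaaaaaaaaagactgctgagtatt
The motifs, searched on both strands, were AGGTCA, a single nuclear receptor element; its direct repeat with any 1 base between the copies, the form bound by PPAR gamma with its partner RXR, in which every match also holds AGGTCA; TTGCNNAA, a C/EBP-type sequence; CCAAT; and TATAAA. The Cd36 window held AGGTCA on the minus strand, beginning 228 bases before the start and printed as TGACCT, and CCAAT 195 bases before it. The Fabp3 window held none of the 5 motifs. Of 32851 promoter windows of this length, 0.0335% held the repeat, 14.0% AGGTCA alone or in it, 9.56% TTGCNNAA, 33.8% CCAAT and 12.4% TATAAA, so the Cd36 matches are common ones.

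Fabp4 and Fabp5 lie together on chromosome 3 with Pmp2 and Fabp9, which encode related lipid-binding proteins. Lpl is on chromosome 8. Levels are given as scaled signal, a linear brightness in which every array has the same trimmed mean of 250. Differences are on log2(scaled signal + 23), which compresses the folds of dim genes, and one was called at an adjusted p under 0.05. Levels of different probe sets are not compared, since probes differ in brightness at equal RNA.

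The arrays fall into 22 earlier ones and 13 later ones, told apart by whether the scanner type was recorded. All drug-treated females were on earlier arrays and all ob/ob males on later ones. The earlier arrays of lean females, of ob/ob females, of pioglitazone-treated ob/ob females and of CL316243-treated ob/ob females were each scanned on a day of their own, so scan day and group cannot be told apart among them. Replicate 4 of ob/ob females and replicate 1 of Ay/+ females, both later arrays, had a median r with their own group of 0.877 and 0.869. Replicate 3 of Ay/+ pioglitazone had a 5th percentile of 23.9, against 2.14 to 7.26 on the other 34 arrays, so its dim signals are raised. Replicate 1 of the diet-induced obese males given pioglitazone had a 3′ to 5′ ratio of Gapdh of 46.9, against 0.708 to 2.51 elsewhere, a possible sign of degraded RNA or short cRNA. Its ratio for Actb was 3.27, below the 4.18 of lean female replicate 4, and its median r with its own group was 0.950. Values without these 4 arrays are given beside the results whose call they change. Markers of adipocytes were bright in every group, with none of 15 under the pseudocount on all arrays of a group, as the tissue label says.

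Of the 5 genes Fabp3 was called most often. Its group means ran from 335 in pioglitazone-treated ob/ob females to 6.57 in diet-induced obese males, whose arrays were all under the pseudocount, so that no ratio is given. It was called in 6 of 12 comparisons, 3 higher (all with pioglitazone) and 3 lower. Group means of Fabp4, Fabp5, Cd36 and the brighter Lpl probe set spanned ratios of 1.85, 2.68, 2.12 and 1.85, and these genes were called in 0, 1, 1 and 2 of the 12 comparisons.

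**Figure D1:**
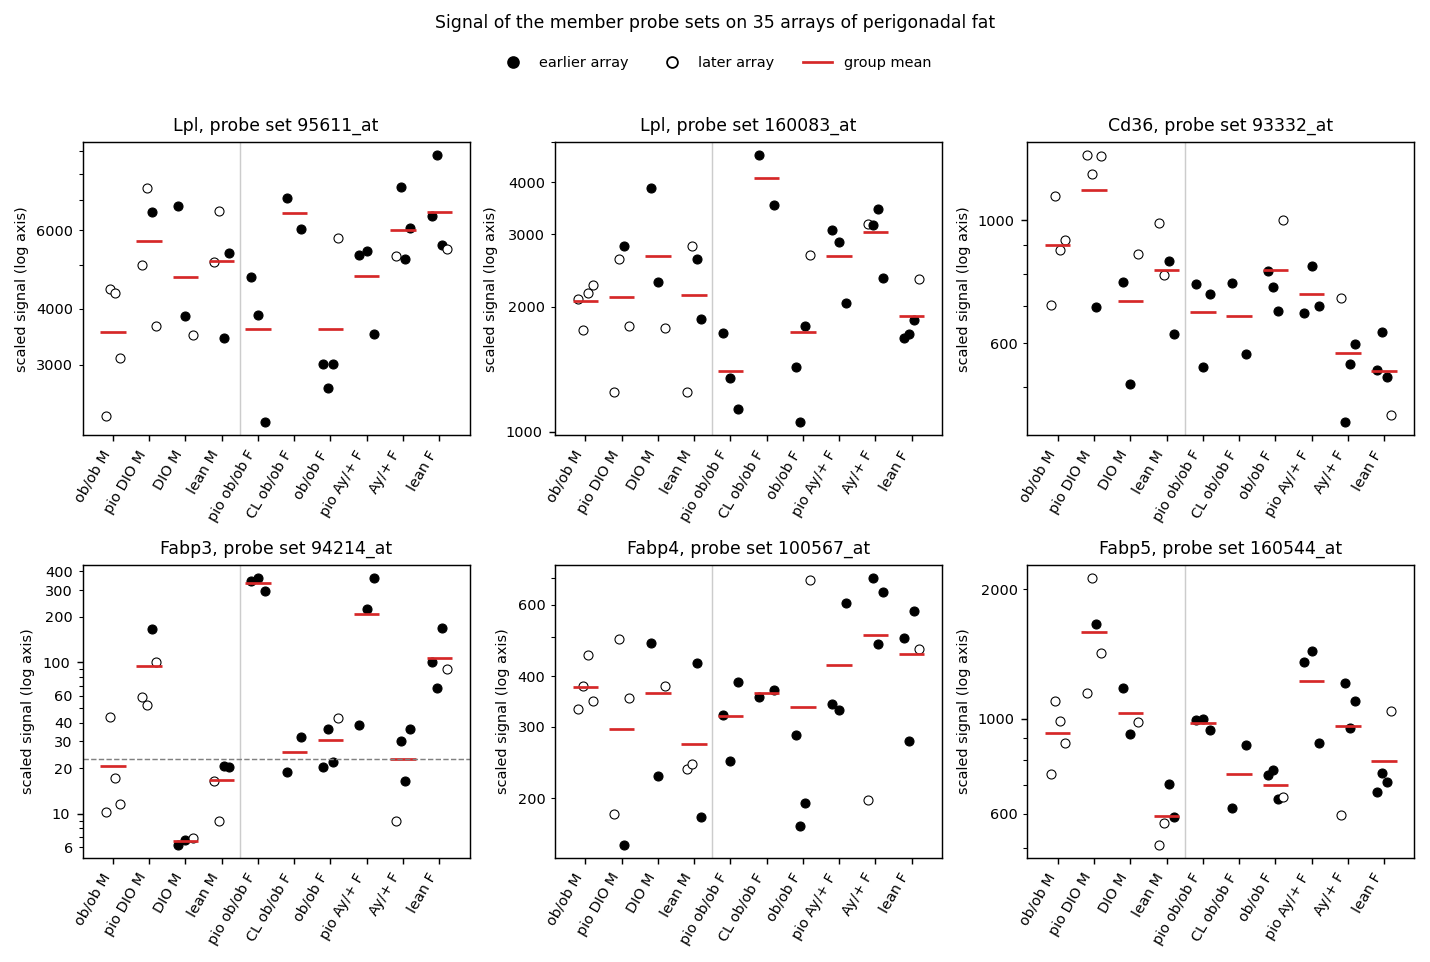
Scaled signal (log axis) of 6 member probe sets on each of 35 arrays, by group, males left of the grey line and females right of it; filled points are earlier arrays, open points later ones, red bars group means, pio is pioglitazone, CL is CL316243 and DIO is diet-induced obese. The dashed line in the Fabp3 panel is the pseudocount of 23: untreated obese groups lie around or under it, and all pioglitazone-treated arrays lie above it.

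Lpl was lower in ob/ob than in lean females on its brighter probe set. That probe set, 95611_at, read 3006, 2668, 3012 and 5763 in ob/ob females, against 6466, 8819, 5568 and 5445 in lean females. In ob/ob females 3 of the 4 arrays were below every lean array, and the fourth, the later array, lay among them. Lpl fell by 0.90 on the log2 scale (SE 0.287, adjusted p = 0.0205), 1.87-fold. In bulk tissue, fewer cells of a type and less RNA per cell cannot be told apart. Lpl was 1 of 3 members called there, with Cd36 and Fabp3, beside 25.8% of all genes. Among earlier arrays alone the difference was -1.23 (adjusted p = 0.00144), and between the later arrays, 1 per group, it was 0.08 (adjusted p = 0.975). The call was lost with lean replicate 2 or any of the other 3 ob/ob arrays left out (-0.84 to -0.75), with scan day as a random block (-0.74) and under quantile normalization (-0.83, adjusted p = 0.0502). The second probe set, 160083_at, read 1432, 1055, 1801 and 2675 in ob/ob females, against 1686, 1725, 1857 and 2340.3 in lean females. These arrays overlap, and the difference was -0.20 (adjusted p = 0.638), so the fall in ob/ob against lean females rests on 95611_at.

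Between the obese female models both Lpl probe sets were called in the same direction. Probe set 160083_at read 3172, 3149, 3455 and 2343 in Ay/+ females, each above at least 3 of the 4 ob/ob arrays. It fell by 0.86 in ob/ob against Ay/+ females (SE 0.274, adjusted p = 0.0238), and 95611_at, at 5237, 7499.6, 5161 and 6053 in Ay/+ females, fell by 0.78 (SE 0.287, adjusted p = 0.0481). Lpl was the 1 member called there, beside 23.2% of all genes and 21.6% of all probe sets. Both differences were larger among earlier arrays, at -1.06 and -1.09, and between the single later arrays they were -0.24 and 0.14, neither called. Both calls were lost with the compared groups only (adjusted p = 0.122 and 0.149) and with scan day as a random block (-0.79 and -0.66). The call on 160083_at was lost without Ay/+ replicate 2 or 3 or ob/ob replicate 1 or 2 (-0.84 to -0.65). The call on 95611_at was lost without Ay/+ replicate 2, 3 or 4 or ob/ob replicate 1, 2 or 3 (-0.85 to -0.66) and under quantile normalization (-0.47). Against lean females, Ay/+ females differed by -0.12 on 95611_at (adjusted p = 0.818) and by 0.66 on 160083_at (adjusted p = 0.0895). On 160083_at every Ay/+ array was above every lean array; in that comparison the arrays of 12% of all genes did not overlap.

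In males Lpl was not called. Probe set 95611_at read 2303, 4440.0, 4346 and 3113 in ob/ob males, 6794, 3854 and 3489 in diet-induced obese males, and 5095, 6609.9, 3438 and 5329 in lean males. The differences were -0.54 in ob/ob against lean males (adjusted p = 0.314) and -0.15 in diet-induced obese against lean males (adjusted p = 0.943). The 95% interval of the ob/ob difference, -1.12 to 0.05, takes in the size seen in females, and the test of ob/ob effect in males minus females gave 0.37 (adjusted p = 0.606). Probe set 160083_at read 2085, 1761, 2162 and 2263 in ob/ob males, 3869, 2301 and 1784 in diet-induced obese males, and 1249, 2806, 2613 and 1875 in lean males, all overlapping.

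Lpl was highest under the beta-3 agonist on 160083_at. It read 4649 and 3529 in CL316243-treated ob/ob females, above all 33 other arrays but 1, a diet-induced obese male at 3869. Against untreated ob/ob females it rose by 1.29 (SE 0.336, adjusted p = 0.0277), 2.44-fold. On 95611_at the treated arrays read 7084 and 6026, above all 4 untreated ob/ob arrays, and the difference was 0.92 (SE 0.351, adjusted p = 0.138), not called. By their brighter probe sets 0 of 5 members were called by limma in this comparison, beside 4.01% of all genes, and 1, Lpl, had an unadjusted p under 0.05, as did 19.2% of all genes. Over all probe sets 3.74% were called, and the arrays of 29.4% of all genes did not overlap. Without untreated replicate 4 both probe sets were called, at 1.52 for 160083_at and 1.17 for 95611_at. The call on 160083_at was lost with CL316243 replicate 1 or 2 left out (1.09 and 1.49) and with untreated replicate 1 or 2 left out (1.22 and 1.08).

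Lpl was called with pioglitazone in none of 3 settings. On 95611_at the treated arrays read 5279, 5390.1 and 3506 in Ay/+ females, 4707, 3870.4 and 2234 in ob/ob females, and 5021, 7450.4, 6601 and 3659 in diet-induced obese males. The differences were -0.35, 0.00 and 0.28 (adjusted p = 0.667, 1.000 and 0.853). On 160083_at the treated arrays read 3069.6, 2866 and 2043, then 1732, 1345 and 1132, then 1247, 2615, 2808 and 1799 in the same order. Their differences were -0.19, -0.25 and -0.32, and treated and untreated arrays overlapped in all 3 settings on both probe sets.

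The Lpl probe sets did not move in step. Their r over 35 arrays was 0.537, and 0.492 after group means were removed. Within an array, 160083_at minus 95611_at was -0.98 ± 0.39 in Ay/+ females and -1.76 ± 0.48 in lean females (log2, SD, n = 4 each), so these probe sets changed unequally there.

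Among 11 measured partners and regulators of lipoprotein lipase, Angptl4, which encodes an inhibitor of the enzyme, rose on its brightest probe set in 3 of 4 comparisons of obese with lean mice. It averaged 1643 ± 266 in ob/ob females, 2246 ± 606 in Ay/+ females and 691 ± 478 in lean females (scaled signal, SD, n = 4 each), differences of 1.41 (adjusted p = 0.000153) and 1.82 (adjusted p = 9.4e-06). In diet-induced obese males it rose to 2271 ± 196 (n = 3), against 1108 ± 267 in lean males (n = 4), by 1.05 (adjusted p = 0.0388). In ob/ob males it averaged 1632 ± 219 (n = 4), a difference of 0.57 that was not called (adjusted p = 0.191). Its other probe sets did not agree: one of them, averaging 37.0 in ob/ob and 164 in lean females, was called lower there (-1.67, adjusted p = 0.00379), and only 1 of the 3 was called higher in Ay/+ females (0.63, adjusted p = 0.0251). Apoc1, which encodes an apolipoprotein that inhibits lipoprotein lipase, fell by 1.29 in ob/ob against lean females and by 1.83 in ob/ob against lean males (adjusted p = 1.8e-05 and 3.6e-08). Lrp1, which encodes a receptor for lipoprotein remnants, rose by 0.90 and 0.77 in the same comparisons. Of the 11 genes, 2 were higher and 1 lower in ob/ob against lean females (median 0.22, beside -0.16 over all genes). In ob/ob against lean males 1 was higher and 2 lower (median 0.08, beside 0.04). Among all genes 25.8% and 12.9% were called in these 2 comparisons, so the counts for ob/ob against lean females are near that share. None of the 11 was called with pioglitazone in any of 3 settings. With CL316243, Apoe, the ligand of remnant receptors, rose by 1.73 and Apoc1 by 1.43 (adjusted p = 0.0271 and 0.00213), 2 of 11. Gpihbp1, whose product carries lipoprotein lipase across the capillary wall, was not measured here.

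Among the other lipases, Lipa, the lysosomal acid lipase, averaged 1114 ± 876 in ob/ob females and 176 ± 106 in lean females, and rose by 2.38 (adjusted p = 0.000226). It averaged 1637 ± 455 in ob/ob males and 226 ± 48.1 in lean males, and rose by 2.71 (adjusted p = 4.2e-05). Lipe, hormone-sensitive lipase, averaged 1319 ± 274 in ob/ob males and 3851 ± 446 in lean males (n = 4 each), and fell by 1.55 (adjusted p = 2.8e-06). Of 7 measured lipases and scavenger receptors, 2 were higher and 1 lower in ob/ob against lean males and 2 were higher in ob/ob against lean females. Among all genes 12.9% and 25.8% were called in the same order. Macrophage markers moved with Lipa: 17 of 21 were higher in ob/ob against lean females and 18 of 21 in ob/ob against lean males. Their summed signal was 32682 to 42723 in ob/ob females and 5128 to 9813 in lean females, and their part in these changes was not tested.

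Cd36 was higher in ob/ob than in lean females. Probe set 93332_at read 811, 757, 687 and 1001 in ob/ob females, against 537, 629, 522 and 445 in lean females. All 4 ob/ob arrays were above all 4 lean arrays. Cd36 rose by 0.59 (SE 0.208, adjusted p = 0.0377), and 20.1% of all genes had arrays that did not overlap there. The call was lost without the 4 arrays named above (0.48, adjusted p = 0.0665) and under quantile normalization (0.52, adjusted p = 0.0709). Leaving out lean replicate 1, 3 or 4 or ob/ob replicate 1, 2 or 4 lost it too (0.48 to 0.61). So did earlier arrays alone (0.40, adjusted p = 0.107), the compared groups only (adjusted p = 0.0655) and scan day as a random block. Between the later arrays, 1 per group, the Cd36 difference was 1.13. CD36 is also made by macrophages and endothelial cells. Macrophage markers were higher in the same comparison, as given above, while 1 of 12 endothelial markers was higher and 3 were lower. Among all genes 25.8% were called there. The part of these cells in the Cd36 difference was not tested.

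In Ay/+ females Cd36 read 724, 432, 551 and 597. These overlap the lean arrays, with a difference of 0.09 (adjusted p = 0.807), and ob/ob against Ay/+ females differed by 0.49 (adjusted p = 0.0855). In males Cd36 read 702, 1106, 884 and 920.0 in ob/ob males, 772, 505 and 869.6 in diet-induced obese males, and 987, 796, 844 and 623 in lean males. These groups overlap, with differences from lean males of 0.15 and -0.19 (adjusted p = 0.819 and 0.868). Lean males against lean females differed by 0.58 (adjusted p = 0.0538), just above the threshold, and the call was made without the 4 arrays named above (adjusted p = 0.0285).

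Pioglitazone-treated diet-induced obese males held the highest Cd36 mean of all groups. They read 1309, 1213, 697 and 1305, and averaged 1131 ± 293, against 716 ± 188 in untreated diet-induced obese males. Of the treated arrays 3 were above all other arrays of the series, and the fourth, the only earlier array of that group, lay among the untreated ones. The difference was 0.63 (SE 0.225, adjusted p = 0.211), not called. Without that earlier array it was 0.85 and called (adjusted p = 0.0424). In that fit all treated arrays were later ones, while the untreated group had 2 earlier arrays and 1 later, so batch and drug were partly mixed. Between earlier arrays alone the difference was 0.15 and between later arrays alone 0.54, each with 1 array in an arm. With the batch block it was 0.49 (adjusted p = 0.434). In females the treated arrays read 679, 825 and 699 for Ay/+ and 765, 544 and 737 for ob/ob, with differences of 0.36 and -0.25, neither called, and 95% intervals of -0.10 to 0.81 and -0.71 to 0.21. CL316243-treated ob/ob females read 771 and 573, a difference of -0.27 (adjusted p = 0.644). The second Cd36 probe set, 161704_r_at, was at 0.427 to 12.5, under the pseudocount on all 35 arrays, and gives no usable level.

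Beyond the surface step, genes for fatty acid transport and activation changed one by one. Of 17 measured, 3 were higher and 3 lower in ob/ob against lean females (median -0.04, beside -0.16 over all genes). Among all genes 25.8% were called in that comparison. Cavin1, a coat protein of caveolae, averaged 4654 ± 464 in ob/ob females, 12621 ± 7294 in Ay/+ females and 1137 ± 680 in lean females, and rose by 2.16 and 3.22 (adjusted p = 0.000442 and 3.7e-06). It was also 2.22 higher in lean males than in lean females (adjusted p = 0.000916). A dimmer probe set of Cavin1 was called in none of these comparisons, with differences of -0.03, 0.86 and -0.58. Cpt1a, which brings fatty acids into mitochondria, rose by 1.42 in ob/ob against lean females and by 0.89 in ob/ob against lean males. Slc27a1, a fatty acid transport protein with acyl-CoA synthetase activity, was the 1 of 17 that rose with pioglitazone, by 1.60 in Ay/+ females and 1.97 in ob/ob females (adjusted p = 0.00828 and 0.00189). None of the 17 was called with pioglitazone in diet-induced obese males.

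Fabp4 was called in none of the comparisons, and its arrays overlapped in all 12. This rests on 1 probe set, 100567_at, with no second one to set beside it. Fabp4 values were as follows. The arrays read 286, 171, 195 and 689 in ob/ob females, 198, 699, 481 and 646 in Ay/+ females, and 496, 276, 579 and 468 in lean females. The highest ob/ob value and the lowest Ay/+ value were both later arrays. The differences from lean females were -0.58 in ob/ob (adjusted p = 0.260) and 0.06 in Ay/+ (adjusted p = 0.936). Without the 4 arrays named above, Fabp4 was called lower in ob/ob against lean females (-0.97, adjusted p = 0.0110) and against Ay/+ females (-1.41, adjusted p = 0.000870). Between the single later arrays the signs were the other way, at 0.54 and 1.69, neither called.

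Fabp4 in males read 331, 379, 452 and 347 in ob/ob, 484, 227 and 378 in diet-induced obese, and 237, 242, 432 and 180.1 in lean mice. Differences from lean males were 0.49 and 0.39 (adjusted p = 0.550 and 0.835). Under pioglitazone Fabp4 read 343, 329.7 and 604 in Ay/+ females, 320.2, 247 and 388 in ob/ob females, and 183, 495, 154 and 354 in diet-induced obese males. All 3 treated groups overlapped their untreated ones, with differences of -0.15, 0.12 and -0.35 and 95% intervals of -0.96 to 0.65, -0.69 to 0.92 and -1.16 to 0.46. CL316243-treated ob/ob females read 355 and 371, a difference of 0.31 (adjusted p = 0.795). The spread within groups was wide, with a median coefficient of variation of 36.0%, beside 18.8% for Fabp5 and 18.4% for Cd36. The intervals above are unadjusted. They show the differences that these values allow, and not the smallest change that a call could find.

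Fabp5 was higher in obese than in lean males. It read 742, 1101, 987 and 877 in ob/ob males and 1179.9, 922 and 982 in diet-induced obese males, against 508, 571, 704 and 589 in lean males. Every array of obese males was above every array of lean males. Arrays did not overlap for 23.8% of all genes in ob/ob and 14.4% in diet-induced obese against lean males. Fabp5 rose by 0.62 in ob/ob against lean males (SE 0.205, adjusted p = 0.0467), 1.54-fold, and was the 1 member called there, beside 12.9% of all genes. In diet-induced obese against lean males the difference was 0.77 (SE 0.222, adjusted p = 0.0662), and limma called 0 of 5 members, beside 2.19% of all genes, with Fabp5 the 1 member at an unadjusted p under 0.05, as were 12.2% of all genes. Without the 4 arrays named above, none of which is in these groups, the same difference was called (adjusted p = 0.00501). The ob/ob call was lost without lean replicate 1, 2 or 4 or ob/ob replicate 2, 3 or 4 (0.53 to 0.64), and among later arrays alone the difference was 0.74 (adjusted p = 0.0717). Macrophages express Fabp5, and 18 of 21 of their markers were higher in ob/ob and 12 of 21 in diet-induced obese against lean males; their part in the Fabp5 difference was not tested. Ob/ob against diet-induced obese males differed by -0.15 (adjusted p = 0.922). There 0 of 5 members were called by limma and 0 had an unadjusted p under 0.05, beside 1.07% of all genes called, although the Fabp3 arrays, like those of 16% of all genes, did not overlap.

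Obese females showed no call for Fabp5. They read 739.5, 760.4, 651 and 658 in ob/ob and 597, 1208, 950.4 and 1099 in Ay/+, against 675, 748, 712 and 1042 in lean mice. The arrays overlap, and the differences from lean females were -0.16 and 0.25 (adjusted p = 0.614 and 0.449). Without the 4 arrays named above the Ay/+ difference was 0.45 and called (adjusted p = 0.0367), as was ob/ob against Ay/+ females at -0.58 (adjusted p = 0.0101), against -0.40 with them. The ob/ob effect in males minus females was 0.77 for Fabp5 (95% interval 0.18 to 1.36, adjusted p = 0.102). In that test of the difference limma called 0 of 5 members, beside 6% of all genes, and Fabp3, Fabp4 and Fabp5 had an unadjusted p under 0.05, beside 23.3% of all genes. Without the 4 arrays named above Fabp3, Fabp4 and Fabp5 were called, at 1.45, 1.47 and 0.75 (adjusted p = 0.0335, 0.0116 and 0.0210). In that fit all ob/ob females were earlier arrays and all ob/ob males later ones, so sex and batch cannot be told apart within ob/ob. Among later arrays alone, with 1 ob/ob and 1 lean female array, the Fabp4 difference was 0.06. Those of Fabp3 and Fabp5 stayed positive there.

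With pioglitazone Fabp5 was higher on average in all 3 settings, without a call. Treated arrays read 1358, 1441 and 878 in Ay/+ females, 994, 997 and 943 in ob/ob females, and 1148, 2129, 1663 and 1425 in diet-induced obese males. In ob/ob females every treated array was above every untreated one, where the arrays of 11.8% of all genes did not overlap. The differences were 0.35, 0.47 and 0.59 (SE 0.222 each, adjusted p = 0.492, 0.671 and 0.251). Without the 4 arrays named above the last was 0.73 and called (adjusted p = 0.0173). CL316243-treated ob/ob females read 617 and 868, a difference of 0.06 (adjusted p = 0.946).

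Fabp3 rose with pioglitazone in all 3 settings, the 1 member called in each, beside 3.73% of all genes called in Ay/+ females, 1.35% in ob/ob females and 1.73% in diet-induced obese males. Treated and untreated arrays did not overlap in any of the 3, as held for 10.3%, 11.8% and 12.4% of all genes in the same order. In ob/ob females it read 348, 363 and 296 with pioglitazone, against 20.3, 36.5, 21.9 and 43.2 without. The groups are far apart, and Fabp3 rose by 2.76 (SE 0.397, adjusted p = 4.0e-05), 6.79-fold. In Ay/+ females it read 38.3, 226 and 359 with pioglitazone, against 8.98, 30.1, 16.5 and 36.3 without. The treated arrays were spread widely, the lowest barely above the untreated ones, and the difference was 2.01 (SE 0.397, adjusted p = 0.00195). In diet-induced obese males it read 59.5, 52.3, 165 and 100.2 with pioglitazone, against 6.23, 6.64 and 6.85 without. Every treated array was well above the untreated ones, which were all under the pseudocount, and the difference was 1.89 (SE 0.397, adjusted p = 0.00582).

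Fabp3 was under the pseudocount of 23 on 15 of 35 arrays, so these folds understate the ratio of signals; with a pseudocount of 1 the difference was 2.80 in Ay/+ females, 3.48 in ob/ob females and 3.50 in the males. In Ay/+ females the result leans on treated replicate 3, the array with raised dim signals: without it the difference was 1.47 (adjusted p = 0.0554), and without the 4 arrays named above 1.31 (adjusted p = 0.0499). In the males the difference was 2.68 among earlier arrays and 1.62 among later ones, neither called with 1 array in an arm. In the tests of differences between the 3 pioglitazone responses limma called 0 of 5 members each, beside 0.0364%, 0% and 0% of all genes. For Fabp3 the ob/ob minus Ay/+ difference was 0.75 (95% interval -0.39 to 1.89), males minus Ay/+ was -0.12 (-1.27 to 1.02) and males minus ob/ob was -0.87 (-2.02 to 0.27). With a pseudocount of 1 these differences were 0.68, 0.70 and 0.02, none called, so their order rests on the pseudocount. Of these tests 1 member, Cd36 in males minus ob/ob females at 0.88, had an unadjusted p under 0.05, as did 5.34% of all genes.

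**Figure D2:**
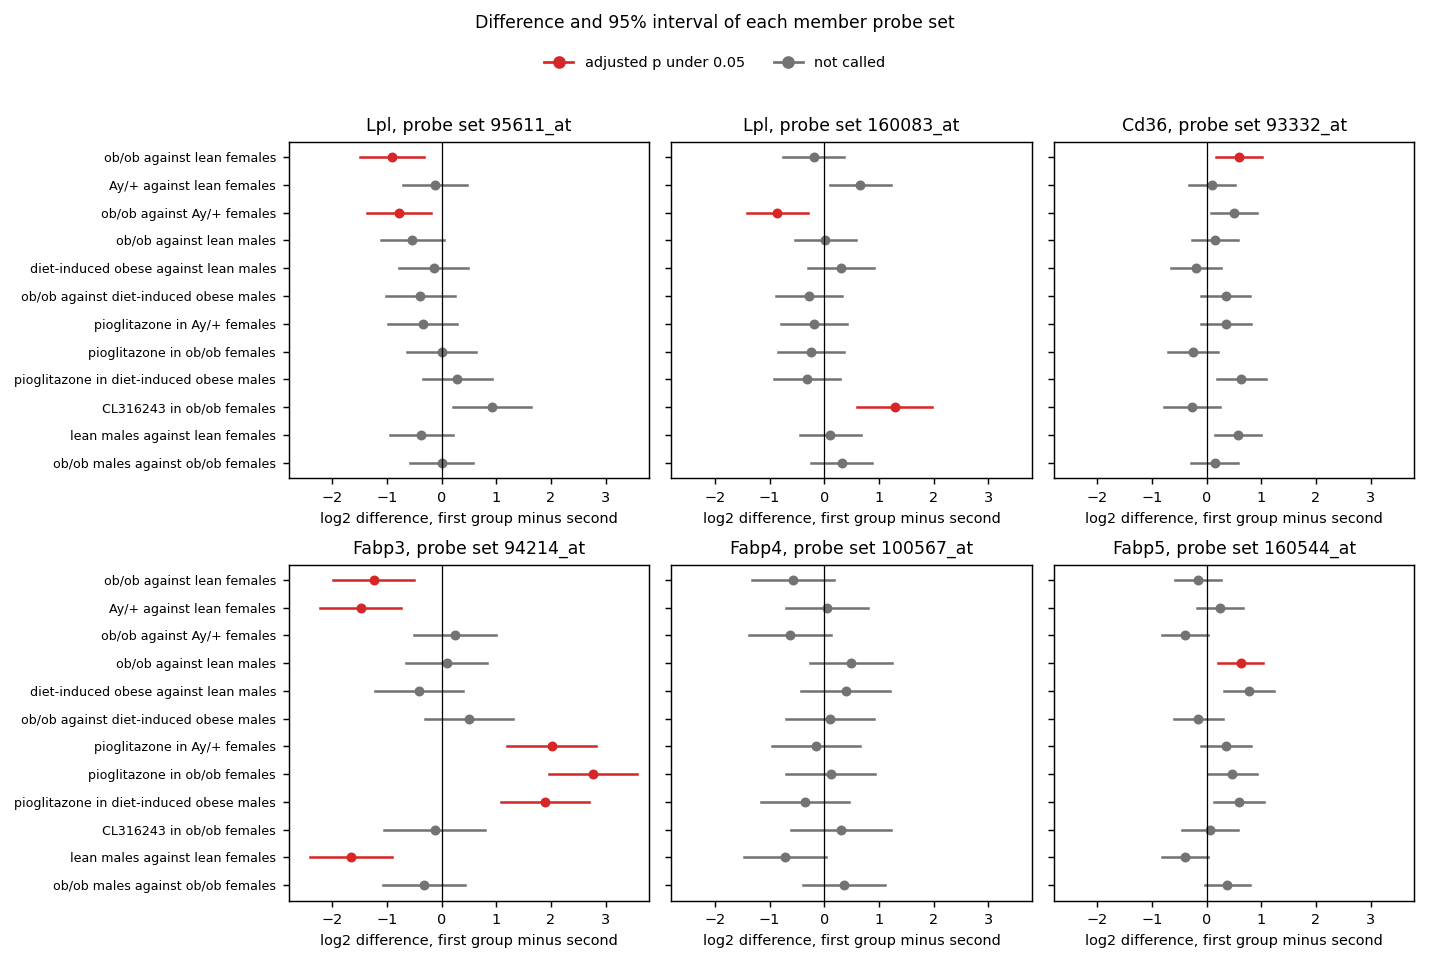
Log2 difference (point) and 95% interval (line) of 6 member probe sets in 12 comparisons, the first-named or drug-treated group minus its reference; red marks an adjusted p under 0.05. Fabp3 is to the right of 0 in all 3 pioglitazone comparisons, at 1.89 to 2.76, and Fabp4 has no called difference.

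With CL316243 Fabp3 was not called: ob/ob females read 18.9 and 32.0 with the drug, close to the 20.3 to 43.2 without it, and differed by -0.13 (95% interval -1.05 to 0.78, adjusted p = 0.933). Fabp3 was lower in untreated obese than in lean females. Lean females read 99.98, 67.9, 169 and 90.3, above all 8 untreated ob/ob and Ay/+ arrays. It fell by 1.25 in ob/ob (SE 0.368, adjusted p = 0.0133) and by 1.48 in Ay/+ (SE 0.368, adjusted p = 0.00470), where it was the 1 member called, beside 20% of all genes. The 2 comparisons share the lean females, and the untreated obese arrays here are those of the pioglitazone and CL316243 comparisons too. The 3′ to 5′ ratio of Gapdh was 0.708 to 1.85 in ob/ob females, 0.741 to 1.02 in Ay/+ females and 1.31 to 2.51 in lean females, while for Actb it spanned 0.156 to 2.00, 0.791 to 1.11 and 0.664 to 4.18 in the same order. The part of RNA quality in these differences was not tested. The ob/ob call was lost without lean replicate 3 (-1.04, adjusted p = 0.0624) and with scan day as a random block (-1.17, adjusted p = 0.0574).

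Lean males had little Fabp3. They read 16.4, 8.98, 20.7 and 20.5, all under the pseudocount and below all 4 lean females, and differed from them by -1.67 (SE 0.368, adjusted p = 0.00314). Fabp3 was the 1 member called there, beside 15.9% of all genes, and 20.9% had arrays that did not overlap. Ob/ob males read 10.3, 43.2, 17.3 and 11.6. They differed from lean males by 0.09 and from ob/ob females by -0.33 (adjusted p = 0.958 and 0.836), at levels too low to resolve a fall. Ob/ob males against ob/ob females had 0 of 5 members called by limma and 0 with an unadjusted p under 0.05, beside 1.3% of all genes called.

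The order of Fabp3 means was thus pioglitazone ob/ob females (335), pioglitazone Ay/+ females (208), lean females (107), pioglitazone diet-induced obese males (94.3), then all other groups at 30.5 or less. Arrays of neighbouring groups overlapped down to the pioglitazone-treated males. Those males did not overlap the ob/ob females next in order, and the diet-induced obese males at 6.57 lay below the lean males next to them.

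Ucp1, which encodes the uncoupling protein of brown fat, had the pattern most like that of Fabp3. Over 35 arrays r was 0.883 (log2), 0.929 over 10 group means and 0.607 after group means were removed. The next were 4931406C07Rik at 0.782 and Dlat, a subunit of pyruvate dehydrogenase, at 0.778. These values describe arrays that share groups, batches and scaling. Ucp1 averaged 1267 ± 271 in pioglitazone-treated ob/ob females and 16.1 ± 15.4 in untreated ones, and 149 ± 70.6 in pioglitazone-treated diet-induced obese males and 13.7 ± 10.9 in untreated ones. In Ay/+ females it averaged 2008 ± 1463 with pioglitazone and 86.4 ± 88.1 without. Lean females averaged 855 ± 496 and lean males 9.50 ± 5.03. Those are levels of the brighter Ucp1 probe set, which rose with pioglitazone by 4.15 in Ay/+ females, 5.09 in ob/ob females and 2.17 in the males. A dimmer probe set rose by 1.55, 1.35 and 0.73 in the same order, none called (adjusted p = 0.0548, 0.242 and 0.649). It was called lower in ob/ob and Ay/+ than in lean females (-2.41 and -1.99), and in lean males than in lean females (-2.86). The lowest Fabp3 array of Ay/+ females given pioglitazone, at 38.3, was also lowest of that group in Ucp1, at 434.

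**Figure D3:**
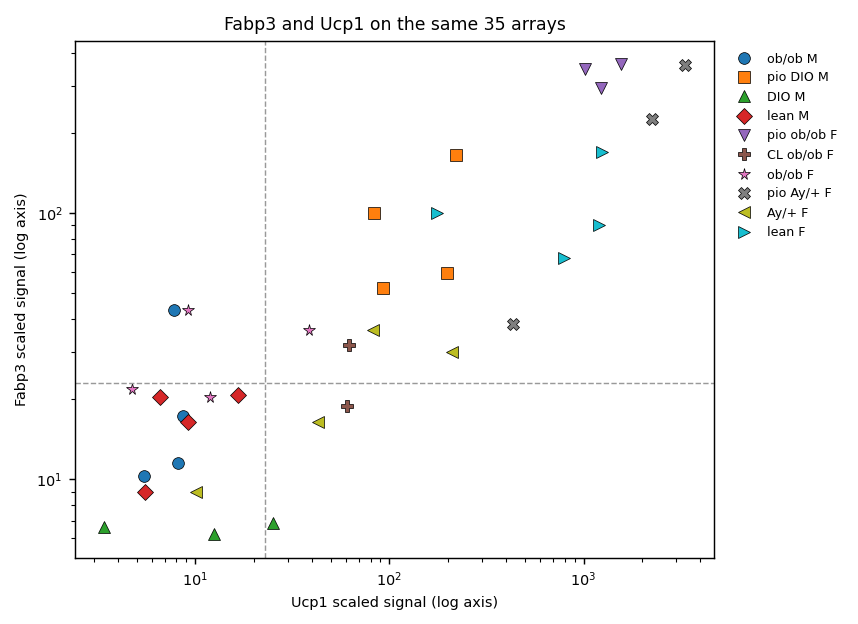
Scaled signal of Fabp3 against that of Ucp1 (both log axes), 1 point per array, marked by group as in the plot of signals by group; dashed lines are the pseudocount of 23. Pioglitazone-treated and lean female arrays lie toward the upper right and most other arrays toward the lower left, with an r of 0.883 on the log2 scale. The split is not complete. Untreated Ay/+ replicates 2 and 4, untreated ob/ob female replicate 2 and CL316243 replicate 2 also lie above both dashed lines.

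Markers of brown and beige adipocytes moved with Fabp3. Of 8 measured, 4 were higher in each pioglitazone comparison (medians 1.39, 1.49 and 1.29 in Ay/+ females, then ob/ob females, then diet-induced obese males, beside 0.04, -0.05 and -0.08 over all genes), and 5 were lower in ob/ob against lean females. Their summed signal was 3507 to 10702 with pioglitazone and 720 to 1774 without it in Ay/+ females, and 2487 to 4197 with it and 378 to 442 without it in ob/ob females. In diet-induced obese males it was 2299 to 4661 with pioglitazone and 690 to 892 without. In lean females it was 3324 to 7447. Ucp1 was under the pseudocount on all 4 arrays of ob/ob males, on all 4 of lean males, on 3 of 4 of ob/ob females, on 2 of 3 of diet-induced obese males and on 1 of 4 of Ay/+ females. The part of these cells in the Fabp3 differences was not tested.

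Skeletal muscle also expresses Fabp3. Among all genes 25.8% were called in ob/ob and 20% in Ay/+ against lean females, and 15.9% in lean males against lean females. Of 15 muscle markers, 8 were lower in ob/ob against lean females, 4 in Ay/+ against lean females and 9 in lean males against lean females. Their summed signal was 2709 to 7061 in ob/ob females, 3531 to 5024 in Ay/+ females and 4071 to 10916 in lean females. Its part in the lower Fabp3 of these groups was not tested. With pioglitazone no muscle marker was higher in any of 3 settings. The sum was 3082 to 3553 with it and 3531 to 5024 without it in Ay/+ females, 1862 to 2493 with it and 2709 to 7061 without it in ob/ob females, and 2241 to 3490 with it and 2422 to 3017 without it in diet-induced obese males.

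Of 8 other intracellular lipid-binding proteins measured, none was called in any pioglitazone comparison or with CL316243. Fabp7, the brain form, rose in ob/ob males to 112 ± 47.2, against 10.8 ± 6.48 in lean males (n = 4 each), by 1.95 (adjusted p = 0.00194). Fabp6, which binds bile acids in the ileum, averaged 30.2 ± 10.7 in lean males and 92.1 ± 30.9 in lean females, and was 1.10 lower on the log2 scale in the males (adjusted p = 0.0327).

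Among 23 measured adipocyte targets of PPAR gamma other than the 5 members, 6 were higher and 0 lower with pioglitazone in each setting, with medians of 0.47, 0.37 and 0.35 in Ay/+ females, then ob/ob females, then diet-induced obese males. Cidea, a lipid droplet protein, rose by 3.17, 3.82 and 2.36. Pdk4, the kinase that switches off pyruvate dehydrogenase, rose by 1.77 in ob/ob females and 3.60 in diet-induced obese males (adjusted p = 0.0170 and 2.7e-07). Pparg itself differed by -0.00, -0.31 and -0.64, none called. In ob/ob against lean males 14 of the 23 were lower and 0 higher (median -1.02, beside 0.04 over all genes), among them Slc2a4, the insulin-responsive glucose transporter, which fell by 2.54. Pparg fell by 1.21 there (adjusted p = 0.000234), while Lpl and Cd36 were not called and Fabp5 rose. Adipocyte markers were lower in the same comparison, 11 of 15, with sums of 25567 to 37562 in ob/ob males and 51002 to 67746 in lean males, and macrophage markers were higher. Their part in the members' values was not tested.

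Over 35 arrays the nearest patterns of the other members had a lower r than Fabp3 with Ucp1. After group means were removed that order did not hold. There r was 0.814 for Fabp4 with Ikzf4, 0.705 for Lpl with Mrpl45, 0.700 for Cd36 with Kpna1 and 0.646 for Fabp5 with Bcap31, beside 0.607. Over 10 group means Fabp4 with Hrc (0.950) and Lpl with Anapc13 (0.945) were above the 0.929 of Fabp3 with Ucp1. Those of Fabp5 and Cd36 were below it. Over 35 arrays Fabp4 was nearest Ikzf4 (0.811), Hrc (0.799) and Dmtf1 (0.795), and Fabp5 nearest Bcap31 (0.710), Znhit1 (0.710) and Pdk4 (0.685). Lpl was nearest Anapc13 (0.754), Mrpl45 (0.735) and Lamb1 (0.734), and Cd36 nearest Kpna1 (0.746), Uhmk1 (0.701) and Ell2 (0.691). Between members, r over the arrays was low: 0.19 for Fabp4 with Fabp5, 0.32 for Fabp5 with Fabp3, -0.10 for Cd36 with Fabp3 and -0.17 for Cd36 with Lpl.

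**Figure D4:**
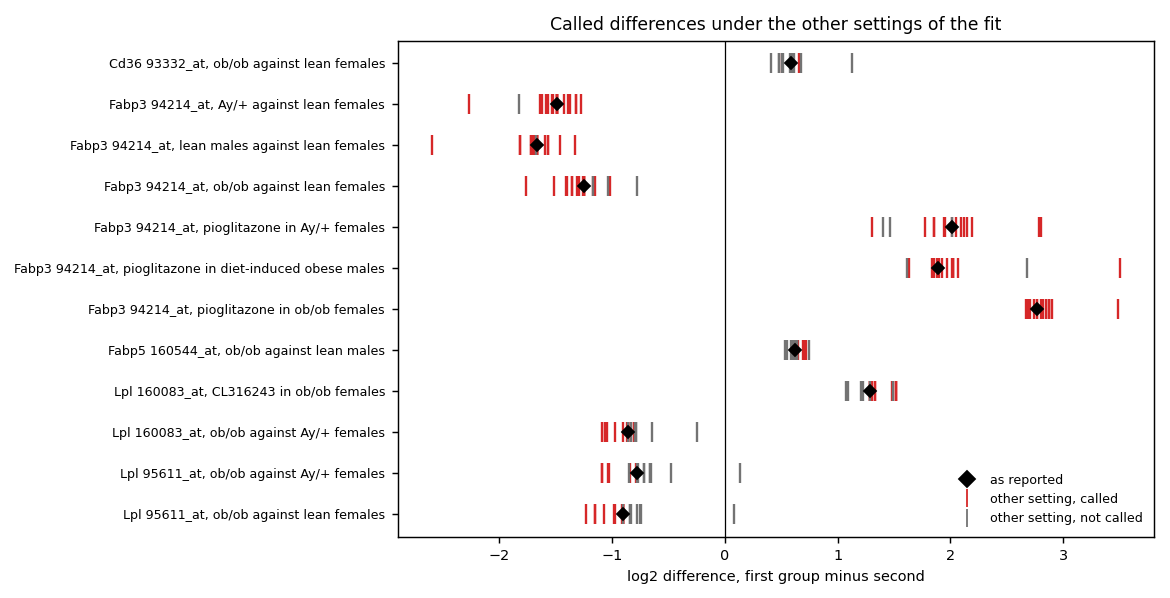
Log2 difference of each called member probe set and comparison as reported (diamonds) and under every other setting of the fit (ticks; red where still called, grey where not). Each tick for Fabp3 keeps the reported sign, and a grey tick for Lpl 95611_at crosses 0 in 2 comparisons, at 0.08 and 0.14, between later arrays alone.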

How the data were processed

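Per the labels, the authors deposited MAS5 signal intensity, a linear brightness per probe set; scaling target and detection calls were not given in the sources used here, and 22 arrays had trimmed means other than that of the 13 later ones. Scaling set the 2% trimmed mean of all arrays to 250. After 66 controls were left out, 12422 probe sets were tested on log2(signal + 23), 23 being the 25th percentile. A model of 10 group means over 35 arrays was fitted with limma (version 3.58.1, R 4.3.3), with eBayes and a mean-variance trend, 12 comparisons and 4 differences of effects; p was adjusted by Benjamini-Hochberg over all probe sets of a comparison, and 95% intervals are unadjusted. The brightest probe set stood for a gene in counts.

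The members and gene lists were chosen with earlier results of these data known. Named were all members, up to 3 called genes per list with the largest difference and a mean of at least 2 times the pseudocount, the 3 probe sets nearest each member, and context genes. Gene names came from the platform annotation: 10833 probe sets had 1 symbol, 396 several and 1193 none. Alternatives are given in the closing section. The code was tested on simulated data.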

Additional observations from a re-analysis of the deposited data

Results flagged for a closer look

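Among groups of 4 arrays, chance sets a sample this far from its group about 1 time in 20. Cd36 on probe set 93332_at read 697 in replicate 3 of diet-induced obese males given pioglitazone, low beside 1213 to 1309 in the other 3; it is the only earlier array of that group. Lpl on probe set 95611_at read 5763 in replicate 4 of ob/ob females, high beside 2668 to 3012 in the other 3; it is the only later array of that group and the array that correlated least with its group.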

How the results depend on the processing

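Counts of member genes called, out of 5, were recomputed under each alternative; all were planned. A pseudocount of 1, the batch block and the replicate block changed no count by over 1.5 times (with the replicate block 3 in ob/ob against lean females and 1 in each pioglitazone comparison, as reported); the shared replicate numbers did not pair samples, since same-numbered samples correlated at -0.298 to 0.190. Under quantile normalization the count was 1, not 3, in ob/ob against lean females and 0, not 1, in ob/ob against Ay/+ females. There the median difference over all probe sets was -0.05 in ob/ob against lean females, beside -0.18 as reported, and 1468 of 2803 calls were higher, beside 1283 of 3024. In lean males against lean females 790 of 1423 calls were then higher, beside 648 of 1949. Keeping only probe sets above the median, which drops Fabp3, gave 0 in Ay/+ against lean females and in the 3 pioglitazone comparisons, and 1 in diet-induced obese against lean males. Without the variance trend ob/ob against lean males had 0. With the compared groups only, counts were 1 in ob/ob against lean females, 0 in ob/ob against Ay/+ females, 0 with pioglitazone in Ay/+ females and 1 for the ob/ob effect in males minus females. With array weights they were 3 in ob/ob against Ay/+ females, 1 in diet-induced obese against lean males, 0, 2 and 3 with pioglitazone in Ay/+ females, ob/ob females and males, 1 with CL316243, 2 in lean males against lean females, 1 in ob/ob males against females and 3 for the ob/ob effect in males minus females. Earlier arrays alone gave 2 in Ay/+ against lean females, 4 in ob/ob against Ay/+ females, 0 with pioglitazone in males and 1 with CL316243. Later arrays alone, often 1 per arm, gave 0 in ob/ob against lean females, Ay/+ against lean females, ob/ob against Ay/+ females, ob/ob against lean males, pioglitazone in males, and lean males against lean females, and the sign of Lpl on 95611_at was reversed, at 0.082 in ob/ob against lean females and 0.14 in ob/ob against Ay/+ females. Scan day as a random block gave 0 in ob/ob against lean females, ob/ob against Ay/+ females and ob/ob against lean males. Without the 4 arrays named in the report counts were 2 in Ay/+ against lean females, 3 in ob/ob against Ay/+ females, 1 in diet-induced obese against lean males, 2 with pioglitazone in males, 1 with CL316243, 2 in lean males against lean females and 3 for the ob/ob effect in males minus females. Leaving out 1 array at a time gave 1 to 3 in ob/ob against lean females, 0 to 4 in ob/ob against Ay/+ females, 0 to 1 in ob/ob against lean males, 0 to 1 with pioglitazone in Ay/+ females, 1 to 2 with pioglitazone in males, 0 to 1 with CL316243, 1 to 2 in lean males against lean females and 0 to 1 for the ob/ob effect in males minus females. Calls over all probe sets moved as well: in ob/ob against lean females they were 3024 as reported, 4869 without the 4 arrays, 5630 with array weights, 1406 with the compared groups only and 1448 with scan day; with CL316243 464, 1981, 3186, 20 and 32 in the same order; and with pioglitazone in Ay/+ females 377, 1093, 641, 90 and 387. The cause of these shifts was not tested, beyond the fewer samples or probe sets.

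Of 1958 member values under an alternative, 1851 kept their side of the threshold, 61 were no longer called, 44 were newly called and 2 reversed with a call; 111 uncalled values changed sign. Fabp3 with pioglitazone in ob/ob females was called under every alternative that kept it, at 2.67 to 3.48. The treated arrays there were scanned on a day of their own, so none of the alternatives can tell the drug from scan day. The arrays number 2 to 4 per group, and signals near the pseudocount, as for Fabp3 in untreated obese mice, limit what falls can be seen.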
